A study of Mus musculus with 3 samples.

Results

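Peaks of the forkhead transcription factors Foxc1 and Foxc2 were examined at 9 genes of transforming growth factor beta (TGF-beta) and bone morphogenetic protein (BMP) signalling: the inhibitory Smads Smad6 and Smad7, the receptor Smads Smad1, Smad2, Smad3, Smad5 and Smad9, the common Smad Smad4, and the receptor gene Bmpr2. The genes were chosen by name, with earlier results of these data known, out of 21887 protein-coding genes. A peak was counted for a gene when its summit lay in the RefSeq GRCm38 gene span or within 50 kb of either end. This took in 18 of 5213 Foxc1 peaks and 14 of 2881 Foxc2 peaks. The peaks came from chromatin immunoprecipitation and sequencing (ChIP-seq), which recovers the DNA that an antibody pulls down with its protein. The material was kidney glomeruli, the capillary tufts that filter blood, taken with magnetic beads from C57BL/6 mice aged 8 weeks. The Foxc1 library was made with antibody D8A6 of CST, the Foxc2 library with antibody AF6989 of R&D Systems, and a library of input DNA, not analysed here, had no antibody. Each group had 1 library, so no value has a spread between replicates, and no difference below was tested. The number of animals is not stated in the labels, and whole glomeruli hold podocytes, mesangial cells and endothelium, so a peak cannot be assigned to a cell type.

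Smad proteins carry the signals of TGF-beta and BMP ligands from the cell surface to the nucleus. Ligands bring together type I and type II receptor kinases, and the type I receptor then phosphorylates receptor Smads, which join Smad4 and bind DNA. Smad2 and Smad3 mainly serve TGF-beta and activin, while Smad1, Smad5 and Smad9 mainly serve BMPs. Smad6 and Smad7 block this relay at the receptors, and their genes are themselves induced by the pathway, which closes a feedback loop. In the glomerulus, TGF-beta signalling is best known for its part in scarring and podocyte loss.

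Of the 9 genes, 7 had a Foxc1 summit in reach (77.8%, exact Clopper-Pearson 95% interval 40.0 to 97.2%), against 29.3% of all protein-coding genes. A Foxc2 summit was in reach of 6 (66.7%, exact interval 29.9 to 92.5%), against 23.2% of all genes. The intervals cover counting error only, and the 9 genes were not drawn at random. The same 6 genes had summits of both antibodies, against 12.5% of all genes, and Smad5 had a Foxc1 summit alone. Smad2 and Smad9 had none. The members are longer than most genes, with a median span of 69.0 kb against 17.2 kb over all genes, and a longer span collects more summits. Among the 5753 genes with spans between 28.6 and 114 kb, the range of the members, 34.2% had a summit of Foxc1 and 27% one of Foxc2. Counted within the gene spans alone, 2 of the 9 genes had a Foxc2 summit, against 7.58% of all genes. With peaks of fold 5 or more, 3 of the 9 did, against 3.9% of all genes. The shares of 12.5, 7.58 and 3.9% cover genes of all lengths and were not matched to the members' spans.

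**Figure D1:**
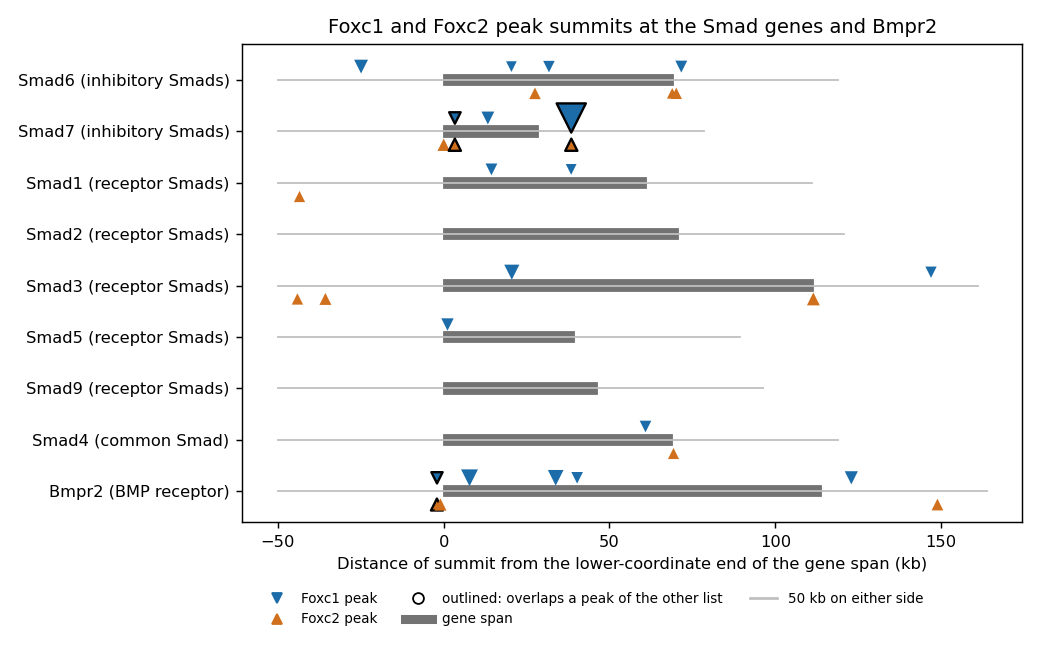
Each row is a gene, with its span as a dark bar and 50 kb on either side as a thin line, and the x axis gives the distance of a summit in kb from the end of the span with the lower coordinate. Foxc1 peaks (triangles above) and Foxc2 peaks (below) grow with fold enrichment, and outlined ones overlap a peak of the other list. Smad6, Smad7 and Bmpr2 hold 21 of the 32 peaks, and the rows of Smad2 and Smad9 are empty.

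Smad7, which draws ubiquitin ligases to the TGF-beta receptors and so removes them, had the strongest peak of any member. It lies on chromosome 18 (75367365 to 75395935, mm10) with 3 peaks of each antibody. The strongest Foxc1 peak (75405448 to 75406227) had its summit 9.91 kb beyond the end with the higher coordinate, at a fold enrichment of 48.3 over the caller's local background. Only 1 of the 5213 peaks of that list had a higher fold. Its minus log10 q-value was 440. A Foxc2 peak of fold 5.14 lay at the same place, with a summit 19 bp away. It ranked 502 in its own list, in which the highest fold was 16.0. The gene Ctif, which acts in translation, was also within 50 kb of this pair of peaks, although the nearest end belonged to Smad7.

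Inside Smad7, a Foxc1 peak of fold 4.11 and a Foxc2 peak of fold 5.16 overlapped 3.41 and 3.39 kb from the end with the lower coordinate, with summits 21 bp apart. Over all 428 overlapping pairs of the lists the median gap between summits was 65 bp. A Foxc1 peak of fold 6.17 lay deeper in the gene, 13.3 kb from that end, without a Foxc2 partner. A Foxc2 peak of fold 5.50, which ranked 333, had its summit 0.033 kb inside the same end, without a Foxc1 partner. All 3 Foxc2 peaks of Smad7 were thus above 5, while its Foxc1 peaks spanned 4.11 to 48.3.

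Smad6, which mainly restrains BMP receptor Smads, had 4 Foxc1 and 3 Foxc2 peaks and no overlapping pair. It lies on chromosome 9 (63953076 to 64022085, minus strand). The strongest of its Foxc1 peaks, at a fold of 7.75, lay 24.9 kb beyond the downstream end of the gene. The others, at folds of 3.01 and 4.11 inside the gene and 4.75 upstream of it, were below the median of 4.90 for the whole Foxc1 list. A Foxc2 peak of fold 4.30 inside the gene lay 4.21 kb from the nearest Foxc1 summit. The remaining peaks of both antibodies gathered around the start of transcription. A weak Foxc2 peak, of fold 2.86 and rank 2768, had its summit 0.058 kb downstream of the annotated start, another of fold 3.95 lay 1.15 kb upstream, and the Foxc1 peak of fold 4.75 lay 2.67 kb upstream.

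The receptor Smad with the most peaks was Smad3, the main carrier of TGF-beta signals to fibrosis genes, with 2 Foxc1 and 3 Foxc2 peaks. It lies on the same chromosome as Smad6 (63646766 to 63757994, minus strand). Its strongest Foxc1 peak had a fold of 10, ranked 561 and lay inside the gene, 90.7 kb downstream of the start. The other, of fold 3.86, lay 35.7 kb upstream. The strongest Foxc2 peak of all members, with a fold of 6.17 and rank 214, had its summit 0.233 kb upstream of the Smad3 start. The remaining Foxc2 peaks, at folds of 3.95 and 4.81, lay beyond the downstream end inside the neighbouring gene Aagab, the first of them 0.079 kb from an end of Aagab. No peak of the 2 antibodies overlapped at Smad3, and the closest summits were 35.5 kb apart.

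The promoters of Smad6 and Smad3 are shown because a Foxc2 peak overlapped each. Of the 6 members with an entry in the RefSeq promoter table (GRCm38.p6) these 2 had such a peak, against 6.63% of 17492 genes, and none had a Foxc1 peak there, against 1.55%. Overlap with a peak was taken over the table's whole window of 300 bases, 250 before the start and 50 after it. The table holds no entry for Smad2, Smad4 or Smad7. The 250 bases before the start are printed 5′ to 3′ on the gene's own strand, from chr9:64022060-64022309 for Smad6 and chr9:63757995-63758244 for Smad3, both on the minus strand. Capitals mark a match to one of the motifs searched.
Smad6: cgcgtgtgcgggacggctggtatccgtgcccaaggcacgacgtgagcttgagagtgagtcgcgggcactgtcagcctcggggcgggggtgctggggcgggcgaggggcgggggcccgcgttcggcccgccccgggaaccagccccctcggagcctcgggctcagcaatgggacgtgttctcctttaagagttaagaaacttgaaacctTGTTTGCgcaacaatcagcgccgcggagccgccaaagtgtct
Smad3: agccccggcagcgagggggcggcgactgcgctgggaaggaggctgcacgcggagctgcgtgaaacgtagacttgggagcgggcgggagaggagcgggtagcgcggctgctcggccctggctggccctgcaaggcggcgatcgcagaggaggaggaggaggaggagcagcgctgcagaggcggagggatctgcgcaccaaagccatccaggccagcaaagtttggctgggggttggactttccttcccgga
The letters searched on both strands began with the forkhead word TGTTTAC, its variant TGTTTGC and the shorter word TGTTTA, which lies within the first. The Smad words were the palindrome GTCTAGAC and the shorter CAGACA, and the BMP response word was GGCGCC. Smad6 held TGTTTGC once, with its first base 42 bases before the start and 100 bp from the Foxc2 summit, inside the Foxc2 peak. That word occurs in 836 of 21263 promoters (3.93%) and in 28 of the 1289 that a Foxc2 peak overlapped (2.17%). Smad3 held none of the words, and its promoter consisted of G and C to 69.2%, Smad6's to 66.8%, against a median of 55.6% over all promoters. GGCGCC occurred in the windows of Bmpr2 and Smad9 and in that of 1 of 3 Smad5 starts, none of which a Foxc2 peak overlapped. It occurs in 12.3% of all promoters and in 370 of the 1289 that a Foxc2 peak overlapped (28.7%). Of all promoters, 2.62% held TGTTTAC, 10.5% the shorter forkhead word, 0.183% the Smad palindrome and 15.2% the shorter Smad word. Among promoters that a Foxc2 peak overlapped these shares were 2.56, 5.28, 0.155 and 8.92%. No member window held any of these words. GGCGCC was the only word with a higher share in the overlapped promoters. It consists of G and C alone, and the G and C content of those promoters was not compared. A match describes letters and is no binding site.

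The receptor Smads of the BMP branch, Smad1, Smad5 and Smad9, had 4 peaks together, of folds up to 5.43. Smad1 had 2 Foxc1 peaks inside the gene (chromosome 8, 79338395 to 79399428), at folds of 4.59 and 3.14. Its Foxc2 peak, of fold 3.71, lay 43.5 kb beyond the gene, inside Mmaa and 0.109 kb from an end of Mmaa. The Foxc1 peak of Smad5 (chromosome 13, 56703010 to 56742378) had a fold of 5.43 and a summit 0.409 kb downstream of the nearest of its annotated starts. The gene Gm45623 was in reach of the same peak, and the nearest Foxc2 summit was 568 kb from Smad5. Smad9 had no peak in reach, and the closest Foxc1 summit lay 491 kb away and the closest Foxc2 summit 2487 kb. The 5 peaks of the TGF-beta branch, Smad2 and Smad3, all lay at Smad3.

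Smad2, the partner of Smad3, also had none, with the nearest Foxc1 and Foxc2 summits 153 and 100 kb from its span (chromosome 18, 76241090 to 76311748). Smad4, the partner that all receptor Smads share, had 1 peak of each antibody (chromosome 18, 73634790 to 73703791). The Foxc1 peak, of fold 4.27, lay inside the gene 8.37 kb from an end, and the Foxc2 peak, of fold 3.57, lay 0.142 kb outside that end. Both were below the median fold of their lists, and both were also in reach of the neighbouring gene Elac1.

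Bmpr2, the type II receptor for BMPs, had more peaks than any Smad gene. It lies on chromosome 1 (59764279 to 59878081, plus strand) with 5 Foxc1 and 3 Foxc2 peaks. Foxc1 peaks of fold 13.4 and 11.1, which ranked 281 and 446, had summits 7.82 and 33.8 kb downstream of the start, and one of fold 4.25 followed at 40.3 kb. Another, of fold 6.64, lay 9.11 kb beyond the downstream end, where Fam117b was also in reach. Upstream of the start, a Foxc1 peak of fold 3.80 and a Foxc2 peak of fold 4.78 overlapped at 1.99 and 2.01 kb, with summits 22 bp apart. A Foxc2 peak of fold 5.16 lay between them and the gene, 0.952 kb from the start. The last Foxc2 peak, of fold 4.47, lay inside Fam117b, 0.144 kb from an end of that gene and 35.1 kb from Bmpr2. The strongest Foxc1 peaks of Bmpr2 were thus inside the gene and unshared, and the shared one was the weakest.

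**Figure D2:**
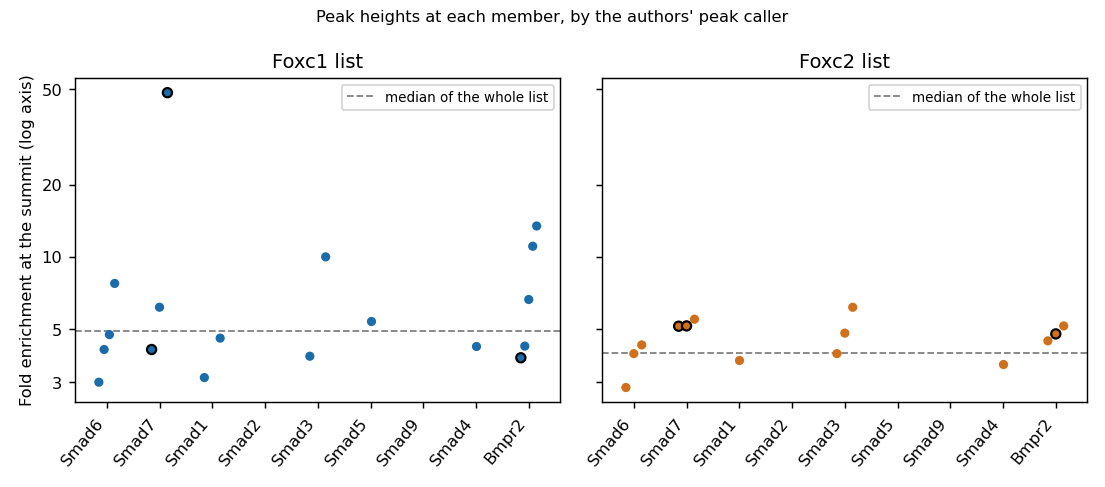
Points are single peaks, with the fold enrichment that the authors' peak caller gave at the summit on a log axis, for the Foxc1 list (left) and the Foxc2 list (right). Outlined points overlap a peak of the other list and dashed lines give each list's median, 4.90 and 3.97. One Foxc1 peak of Smad7 stands at 48.3, while every Foxc2 peak lies between 2.86 and 6.17. Heights are not comparable between the lists.

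Inhibitory Smads carried more peaks for their length than receptor Smads. Smad6 and Smad7 had 7 and 6 peaks over windows of 169 and 129 kb, which is 4.14 and 4.67 per 100 kb. Among receptor Smads the density was 2.37 per 100 kb at Smad3, 1.86 at Smad1, 0.718 at Smad5 and 0 at Smad2 and Smad9. Both inhibitory Smads thus lay above every receptor Smad. Both inhibitory Smads had summits of both antibodies, against 2 of 5 receptor Smads, Smad1 and Smad3, and 12.5% of all genes, whatever their length. The Foxc2 summit counted for Smad1 lay 43.5 kb from it, inside Mmaa. With so few genes the shares of the 2 groups cannot be told apart. Inhibitory Smads had 13 peaks in 298 kb and receptor Smads 9 peaks in 828 kb, a ratio of densities of 4.02 (exact conditional binomial 95% interval 1.59 to 10.7, counting error only). By antibody, the inhibitory Smads had 2.35 Foxc1 peaks per 100 kb (exact Poisson 95% interval 0.946 to 4.85) and the receptor Smads 0.604 (0.196 to 1.41), a ratio of 3.90 (1.06 to 15.6). For Foxc2 the densities were 2.02 (0.740 to 4.39) and 0.483 (0.132 to 1.24), a ratio of 4.18 (0.990 to 20.1). Over the windows of all protein-coding genes the densities were 0.294 Foxc1 and 0.223 Foxc2 peaks per 100 kb, without a match for gene length. The groups hold 2 and 5 genes, which are not replicates, and peaks close together are not independent, so these ratios are a description. Each overlapping pair was counted as 2 peaks.

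**Figure D3:**
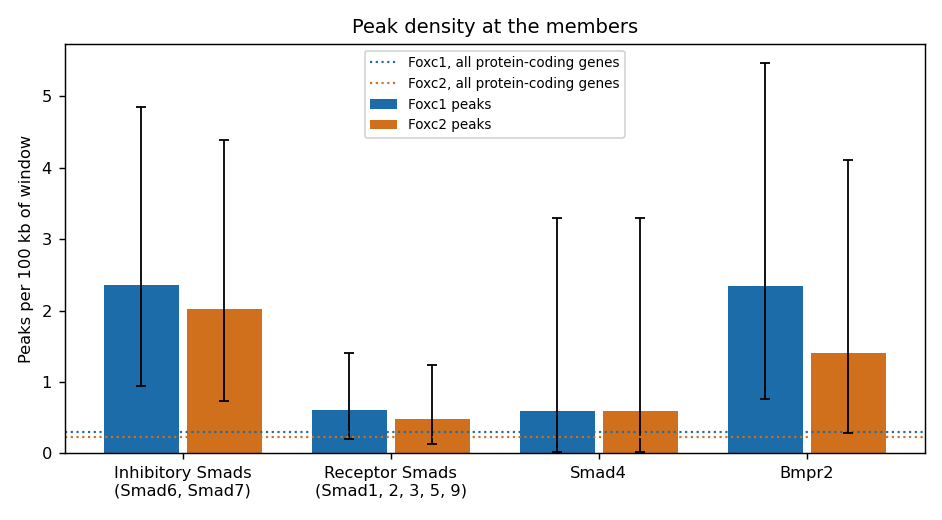
Bars give the number of Foxc1 and Foxc2 peaks per 100 kb of window (gene spans with 50 kb on either side) for inhibitory Smads, receptor Smads, Smad4 and Bmpr2. Error bars are exact Poisson 95% intervals, which cover counting error only, and dotted lines give the density over all protein-coding genes. Inhibitory Smads and Bmpr2 stand at 2.35 and 2.34 Foxc1 peaks per 100 kb, above the 0.604 of receptor Smads.

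The ratio was larger when peaks at other genes were set aside. With each summit given only to the gene with the nearest span, the ratio of inhibitory to receptor Smads was 6.03 (exact interval 2.14 to 19.4), since 3 of the 4 Foxc2 peaks of receptor Smads lay inside Mmaa or Aagab. Within 10 kb of the spans it was 7.47 (2.45 to 27.1), and without Smad3 it was 6.74 (2.08 to 28.4). Without Smad7, the gene with the strongest peak, it was 3.81 (1.21 to 11.5), and without Smad6 4.30 (1.26 to 13.5). Overlapping peaks were found at Smad7 (2 pairs) and Bmpr2 (1 pair), so 2 of 9 members had one, against 3.39% of all genes. That last share was not matched for gene length. At the inhibitory Smads 2 of 7 Foxc1 peaks were shared, against 0 of 5 at receptor Smads and 427 of 5207 (8.20%) in the whole list. With so few peaks these shares cannot be told apart.

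Counted over all genes, 6 or more summits of both lists together were rare. Smad6, Smad7 and Bmpr2 reached that number, against 1.02% of protein-coding genes, and 0.366% had the 8 or more of Bmpr2. As many peaks per 100 kb as Smad7 were found at 0.599% of genes, as many as Smad6 at 0.841%, as many as Bmpr2 at 1.40% and as many as Smad3 at 5.46%. A Foxc1 peak of fold 10 or more was in reach of 3 members, Smad7, Smad3 and Bmpr2, against 4.7% of all genes. The shares of 1.02, 0.366 and 4.7% cover genes of all lengths and were not matched to the members' longer spans. Those for peaks per 100 kb allow for the length of the window, but they too cover genes of all lengths without such a match.

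Apart from the strongest ones, the heights of the members' Foxc1 peaks lay around the median of their list. For the Foxc2 peaks, the members' median was above that of the list. The 18 Foxc1 peaks had a median fold of 4.67, against 4.90 in the whole list, and the 14 Foxc2 peaks one of 4.62, against 3.97. Of the Foxc1 peaks, 12 (66.7%) lay inside the span of the member, against 56.4% of the whole list inside some protein-coding span. None of the 18 had the end of a protein-coding gene span within 1 kb, against 10.9% of the whole list. With so few peaks these 2 shares cannot be told apart. The Foxc1 summit of Smad5 lay 1.07 kb from the span end but 0.409 kb from an annotated start. Of the Foxc2 peaks, 4 lay inside the member's span and 8 (57.1%) inside some protein-coding span, against 66.3% of the whole list. Also 8 of them (57.1%) had such a gene end within 1 kb, against 52.4% of the whole list. Of these last 8, 5 were at an end of the member itself, at Smad3, Smad4, Smad6, Smad7 and Bmpr2. The median distance to the nearest summit of the other list was 18.0 kb for Foxc1 peaks and 3.79 kb for Foxc2 peaks. Of the 32 peaks, 5 Foxc1 and 6 Foxc2 peaks were in reach of another protein-coding gene as well, Iqch and 1700011L22Rik among them. The summit closest inside the limit of 50 kb was a Foxc2 summit of Smad3 at 44.1 kb, and the closest outside it a Foxc1 summit 51.3 kb from Smad7, of fold 3.80.

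Few genes had the same numbers of Foxc1, Foxc2 and shared peaks as the members rich in peaks. Likeness was measured as the distance between the highest folds of both lists on the log2 scale, over 2 libraries. For Smad7 there were 4 such genes, nearest being Tpcn1 (distance 0.36, highest Foxc1 fold 42.7), Tbc1d9b (1.29) and Lmo4 (2.57). For Smad6 there were also 4, nearest being Nsd1 (0.29), Tns3 (0.35) and Myom1 (0.71). Bmpr2 had 2, Rptor (0.99) and Ets1 (1.04). The counts of Smad3 were those of 39 other genes, with Elane and Cfd nearest (both 0.24, from the same folds) and then Sertad2 (0.39). Those of Smad1 and Smad4 were shared with 304 and 991 genes. Nearest to Smad1 were Gmfb, Barx1 and Micalcl, and nearest to Smad4 its neighbour Elac1, Usp18 and Ube2g1. The distance of Elac1 was 0, since the same 2 peaks were in reach of both genes and were counted for each.

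The rest of the pathway was described by 82 further genes in 5 groups. Of these, 36 (43.9%) had a summit of Foxc1 and 29 (35.4%) one of Foxc2, against 29.3 and 23.2% of all protein-coding genes. Summits of both antibodies were in reach of 19 of the 82, against 12.5% of all genes, and 36 had neither. No match for gene length was made here. Receptors and coreceptors had summits most often, 10 of 15 genes for Foxc1 and 9 for Foxc2. The most peaks fell to Hjv, a BMP coreceptor, with 4 Foxc1 peaks of up to fold 11.7 and no Foxc2 peak, to the anti-Müllerian hormone receptor gene Amhr2 with 2 of each, and to Acvr1b, a type I activin receptor, and Eng, the endothelial coreceptor endoglin, with 1 and 3 each. Of 14 ligand genes, 2 had a Foxc1 summit (Bmp2 and Bmp6) and 2 a Foxc2 summit (Bmp7 with 3 peaks, Gdf15 with 1), and none had both.

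Among 16 genes of extracellular inhibitors and carriers, 4 had a Foxc1 summit and 4 had a Foxc2 summit, 3 of them both. Fstl1, a follistatin-like secreted protein, had 5 Foxc1 peaks and 1 Foxc2 peak with 1 overlap, Twsg1, a BMP-binding protein, had 1 of each at the same place, Ltbp3, a carrier of latent TGF-beta, had 1 and 2, and Fstl3 had 0 and 2. Of 19 intracellular regulators, 9 (47.4%) had a Foxc1 summit and 9 (47.4%) had a Foxc2 summit, 6 of them both, against the same shares of all genes. Zfp423, a zinc finger partner of Smads, had 5 of each with 1 overlap, Zeb2, a Smad-binding repressor, had 5 and 3 with 2 overlaps, its relative Zeb1 had 4 and 0, and Ski, a corepressor that binds Smads, had 1 Foxc1 peak of fold 15.4 and 3 Foxc2 peaks. Of 18 target genes, 11 (61.1%) had a summit of Foxc1 and 5 (27.8%) one of Foxc2, the latter near the 23.2% of all genes. Id3 and Id1, direct BMP targets that block basic helix-loop-helix factors, had 3 Foxc1 peaks each, of up to fold 24.7 and 7.12, and no Foxc2 peak. Junb had 1 Foxc1 peak of fold 18.0 and 2 Foxc2 peaks, and Atoh8 had 2 and 1. A peak counts for every gene in reach, and for these genes sharing with neighbours was not examined.

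**Figure D4:**
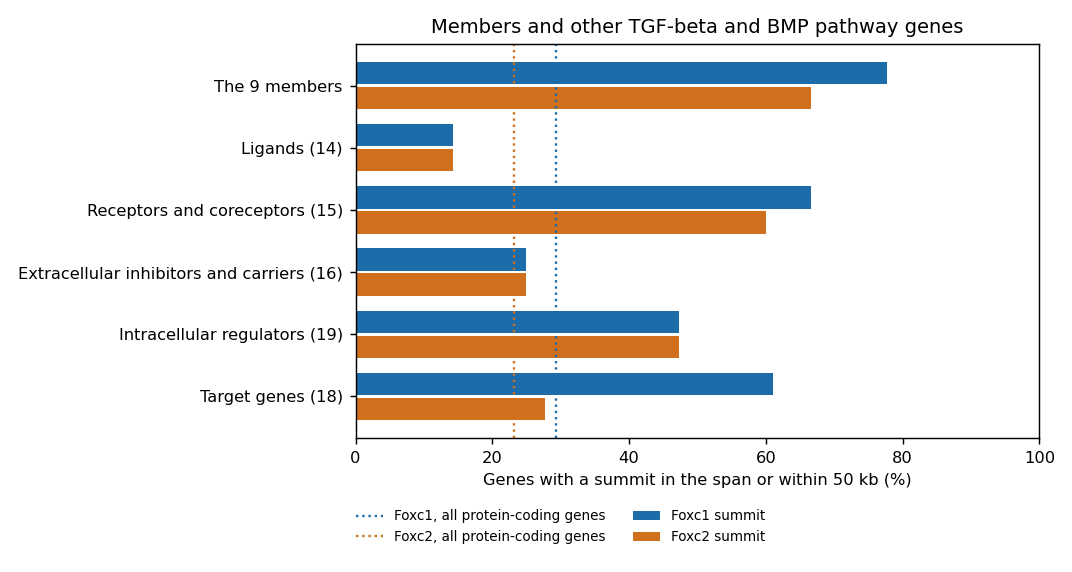
Bars give the share of genes with a Foxc1 or Foxc2 summit in the span or within 50 kb, for the 9 members and 5 groups of other pathway genes, with the number of genes in brackets. Dotted lines give the share of all protein-coding genes, 29.3% for Foxc1 and 23.2% for Foxc2. Receptors reach 66.7 and 60.0%, while ligands stand at 14.3% for both.

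Of 10 markers of podocytes, 9 had a summit of Foxc1 and 9 had one of Foxc2, 8 of them both. All 5 mesangial markers had a Foxc1 summit and 1 had a Foxc2 summit. Of 5 endothelial markers 2 (40%) had one of Foxc1 and 1 (20%) had one of Foxc2. Of 5 proximal tubule markers 2 (40%) had both. Over all genes the shares were 29.3% for Foxc1 and 23.2% for Foxc2. Proximal tubule markers thus had summits at least as often as endothelial markers, so these counts cannot check the tissue. Peaks are no measure of expression, so no marker could be called absent. The libraries' depth is unknown, since the lists give no read counts, and a gene without a peak may hold weaker sites that were not called.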

How the data were processed

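ChIP-seq libraries of Foxc1, Foxc2 and input DNA from glomeruli were listed, 1 of each, and grouped by their titles. Per the submitters' processing notes, the authors used Bowtie2, MACS2 and the build mm10. Versions, settings, read filters, pooling and the control of each list were not given in the sources used here. Each deposited peak list gives a fold enrichment (the ratio of the summit to local background), the minus log10 (−log10) of the p-value and q-value, and a deposited score, not used, that repeats the q-value. Depth and its precision are unknown.

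Summits (start plus offset, 1-based) were assigned to spans of 21887 protein-coding genes of the RefSeq table of GRCm38.p6, the assembly of mm10, within 50 kb. Peaks on other sequences, 6 and 3, were left out. Overlap meant at least 1 bp. Strand and starts came from the RefSeq promoter table, which covers 17492 of these genes, and exons were not used here. Protein sequences were not analysed here. The members and lists were chosen with earlier results of these data known, and no test was made. All 9 members were named, with neighbours of their summits, up to 3 genes of like pattern and up to 4 pathway genes per group with the most peaks. The assignment, overlap and interval procedures were tested on simulated data. Alternatives covered distance, peak thresholds, overlap and gene sharing, and leaving out a gene from the ratio was added after seeing the data. Python 3.11.15, pandas 2.3.3 and scipy 1.17.1 were used.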

Additional observations from a re-analysis of the deposited data

How the results depend on the processing

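Of 57 values recomputed under alternatives, 47 stayed within 1.5 times the reported count or inside the interval of the ratio, and 10 moved further. Among the 47 were the counts of Foxc2 peaks and their members with the strongest Foxc1 peaks alone, which that setting could not change. In gene spans alone, 2 members had a Foxc2 summit, with 4 Foxc2 peaks and 1 shared Foxc1 peak. With peaks of fold 5 or more, 3 members had a Foxc2 summit, and 8 Foxc1 peaks, 5 Foxc2 peaks and 1 shared Foxc1 peak remained in reach. With a minus log10 q of 5 or more there were 9 Foxc2 peaks. With the 2878 strongest Foxc1 peaks there were 8 Foxc1 peaks, 1 of them shared. Fewer peaks or shorter windows entered these counts by construction. With both lists pooled, the ratio of inhibitory to receptor Smads stayed above 1 under all 15 alternatives run. It ranged from 3.19 without Smad2 to 7.47 within 10 kb, and the lower bound of its interval also stayed above 1. Each overlapping pair was counted as 2 peaks throughout, and no alternative took 1 antibody alone. In the main setting the interval for Foxc2 alone was 0.990 to 20.1, which reaches below 1. Peaks close together are not independent, so these bounds are a description. No paired analysis was possible because each antibody had 1 library. Without replicates or read counts, the lists cannot show how these counts vary between animals or with depth.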

Other observations

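Several summits at the members lay close to genes that do not code for protein, in the same RefSeq table. The Foxc2 summit at the end of Smad7 was 0.31 kb from the long noncoding RNA gene Gm20544, and the strongest Foxc1 summit there lay 5.39 kb from Gm41776. The Foxc2 summit beside Smad4 lay within the span of 4930578L24Rik, and the Foxc1 summit upstream of Smad3 lay 0.407 kb from Gm39359. The Foxc2 summit assigned to Smad1 was 0.185 kb from Gm4890 as well as 0.109 kb from an end of Mmaa. At Smad6 the strongest Foxc1 summit lay 7.71 kb from Gm36033. Whether these peaks bear on the noncoding genes was not tested.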
